A study of Mus musculus with 9 samples.

Results

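Carbamoyl phosphate synthetase 1 (Cps1) and 9 enzymes and regulators of the urea cycle, ornithine and the polyamines were followed in MyC-CaP cells, a mouse prostate cancer line from a MYC-driven tumor. The genes were Cps1, Ass1, Asl, Arg2, Oat, Odc1, Azin1, Amd1, Srm and Sms, found by symbol, and they make up 10 of the 15552 protein-coding genes in the count table. Cps1 was selected on its measured counts, because its level fell between 0 and 24 h, so its values are a description with no test. The other 9 genes were chosen for their place in the pathway, with earlier results of these data known. Arg2 was too low to measure, and 8 of the 9 could be tested.

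Cells were starved for 6 to 12 h without serum and calcium, and the libraries are labelled as treated with NRG1, which binds the receptor HER3, given as recombinant protein at 15 ng/mL. RNA was collected at 0, 12 or 24 h, in 3 biological replicates each. All 9 libraries come from 1 cell line, and the labels name no genetic change. Libraries held for 12 or 24 h without NRG1 were not analysed here, so time in starvation medium and time with NRG1 cannot be told apart.

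The libraries held 28467089 to 39239760 counts. The labels call the cells epithelial-like. Hoxb13, a transcription factor of prostate epithelium, was at 84.3 ± 2.69 CPM at 0 h (CPM, a gene's count scaled to the size of its library, mean ± SD, n = 3), and Krt8, a luminal keratin, at 18.2 ± 1.30 CPM. The epithelial markers Epcam and Cdh1 reached only 3 and 4 counts in any library. Of 6 fibroblast markers, Pdgfra was at 16.8 ± 0.749 CPM, while Col1a1, Col1a2 and Col3a1 reached 12, 1 and 7 counts. None of 5 immune and 5 endothelial markers had enough counts for a test.

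The urea cycle disposes of ammonia, mainly in the liver. Cps1 and Otc run its first steps in mitochondria, Nags makes the activator that Cps1 needs, and Ass1, Asl and arginase complete the cycle. The ornithine that arginase releases is converted towards proline and glutamate by Oat, or decarboxylated by Odc1 to putrescine, the first polyamine. Amd1 supplies the aminopropyl groups with which Srm makes spermidine and Sms makes spermine. The prostate is known for a high output of polyamines, and Odc1 is a textbook target gene of MYC.

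The sequences before the RefSeq starts of Sms and Odc1 are shown because these were the members that rose at 12 h. RefSeq windows (GRCm38.p6) from 250 bases before to 50 bases after a start were found for 5 of the 10 genes, Ass1, Oat, Odc1, Amd1 and Sms, as 6 windows. The E-box CACGTG, a motif bound by MYC with MAX that reads alike on both strands, was in 7.15% of all 32851 windows. Among the 6 windows it lay 196 bases upstream of the outer RefSeq start of Sms and 36 bases upstream of the RefSeq start of Ass1. The RefSeq starts of Ass1 and Odc1 lie downstream of the annotated gene starts given below. The E-box of Ass1 therefore lies within the annotated gene. The windows of Odc1, Oat, Amd1 and the inner start of Sms held none. Sequence outside the windows, including introns, was not searched, so a gene without a motif here may hold one elsewhere. The cyclic AMP response element TGACGTCA (in 1.79% of all windows) and the ATF4-type element TGATGNAA (3.97%), searched on both strands, were in none of the 6. The 250 bases before the RefSeq start follow for Sms (chrX:157492288-157492537, minus strand) and Odc1 (chr12:17544623-17544872, plus strand), 5′ to 3′, with the E-box in capitals. The last part of the Odc1 stretch lies within the annotated gene, which starts at 17544794.
Sms: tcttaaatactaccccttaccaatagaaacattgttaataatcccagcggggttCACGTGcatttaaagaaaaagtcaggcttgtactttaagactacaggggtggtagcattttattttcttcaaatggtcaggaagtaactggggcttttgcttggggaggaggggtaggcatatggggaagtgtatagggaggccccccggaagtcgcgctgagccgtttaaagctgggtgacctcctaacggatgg
Odc1: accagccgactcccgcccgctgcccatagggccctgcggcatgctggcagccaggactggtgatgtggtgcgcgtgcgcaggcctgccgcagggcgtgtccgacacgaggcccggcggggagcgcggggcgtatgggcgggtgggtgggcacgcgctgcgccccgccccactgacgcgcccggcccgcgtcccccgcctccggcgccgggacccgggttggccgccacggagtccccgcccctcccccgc

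Cps1 (ENSMUSG00000025991.8, GRCm38 chromosome 1, 67123026 to 67231259) makes carbamoyl phosphate from ammonia and bicarbonate and is best known from liver and intestine. Its level stepped down at each time point. It was 304, 323 and 296 CPM in the 0 h libraries, 219.6, 194 and 227.5 at 12 h, and 163.5, 163 and 166 at 24 h. Every 12 h library lay below every 0 h library, and every 24 h library below every 12 h library. The log2 fold change was -0.525 ± 0.050 at 12 h (SE), -0.91 ± 0.050 at 24 h, and -0.38 ± 0.050 from 12 to 24 h. The mean had decreased by 46.65% at 24 h. Leaving out any 1 library kept the 24 h value within -0.93 to -0.87. Since Cps1 was chosen for its fall, the SE, the order of the libraries and this range only describe it. A lower level in each cell and fewer cells with the transcript cannot be told apart in bulk libraries. The exons of Cps1 overlap those of no other gene.

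Genes that act with Cps1 in liver were then examined. Nags had 0 counts in 8 libraries and 1 count in the other, at depths where 3 counts correspond to 0.0764 to 0.1065 CPM, and Otc was not analysed here. Of 15 hepatocyte genes 13 were in the table and 5 could be tested. None of these 5 passed in any comparison by edgeR, beside 25.5%, 17.4% and 5.03% of all genes. By edgeR 2 had an unadjusted p under 0.05 at 12 h, and 0 in the other comparisons. The log2 fold change was negative for all 5 at 12 h and for 4 at 24 h, and positive for 4 from 12 to 24 h. Cebpa, a transcription factor of liver and other tissues, was at 315.5 ± 22.1 CPM at 0 h, and Ppargc1a, a coactivator of mitochondrial genes, at 30.5 ± 0.300 CPM. Fgb, Tat and Hal were at 1.03, 0.432 and 0.269 CPM, and albumin (Alb) and Hnf4a reached 1 and 11 counts. Cad, which makes carbamoyl phosphate for pyrimidines in the cytosol, was at 503 ± 17.45 CPM in the 0 h libraries and 484 ± 9.80 in those of 24 h, which is -0.055 on the log2 scale, with an edgeR adjusted p of 0.370.

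The genes most like Cps1 in pattern, by Pearson's r of log2 CPM over the 9 libraries among 8410 genes with a mean of at least 10 CPM, were Mmut (0.976), Spon1 (0.973), Tcim (0.973), Copa (0.970) and Copb1 (0.968). The points share the 3 time points. Mmut, the mitochondrial methylmalonyl-CoA mutase, went from 86.75 to 79.8 and then 74.5 CPM. Spon1, a secreted matrix protein, went from 209 to 166 and then 143.5 CPM. Copa and Copb1 encode coat proteins of transport vesicles, and Copa went from 379 to 353.5 and then 340.4 CPM.

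The remaining genes were compared between time points in 1 fit over all genes, where a gene passed at an adjusted p of at most 0.05. At 12 h against 0 h, 2 of the 8 tested genes passed, Odc1 and Sms, both higher, beside 25.5% of all genes (13.6% higher and 11.9% lower). At 24 h against 0 h, 1 passed, Sms, again higher, beside 17.4% of all genes (9.67% higher and 7.76% lower). From 12 to 24 h, 0 passed by edgeR and 1 by DESeq2, with 3 at an unadjusted p under 0.05, beside 5.03% of all genes (1.97% higher and 3.06% lower). Across the time points together 3 passed, Asl, Odc1 and Sms, beside 27.4% of all genes.

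The changes of these 8 genes were small. None both passed and reached 1.5-fold, which 2.29%, 2.27% and 0.290% of all genes did in the 3 comparisons. Groups did not overlap for 2, 4 and 3 of the 8, beside 38.4%, 35.5% and 25.0% of all genes. The median log2 fold change of the 8 was 0.050 at 12 h, 0.0097 at 24 h and -0.078 from 12 to 24 h, and that of all genes -0.0028, -0.0065 and 0.0023. Both comparisons with 0 h share the same 3 starting libraries.

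**Figure D1:**
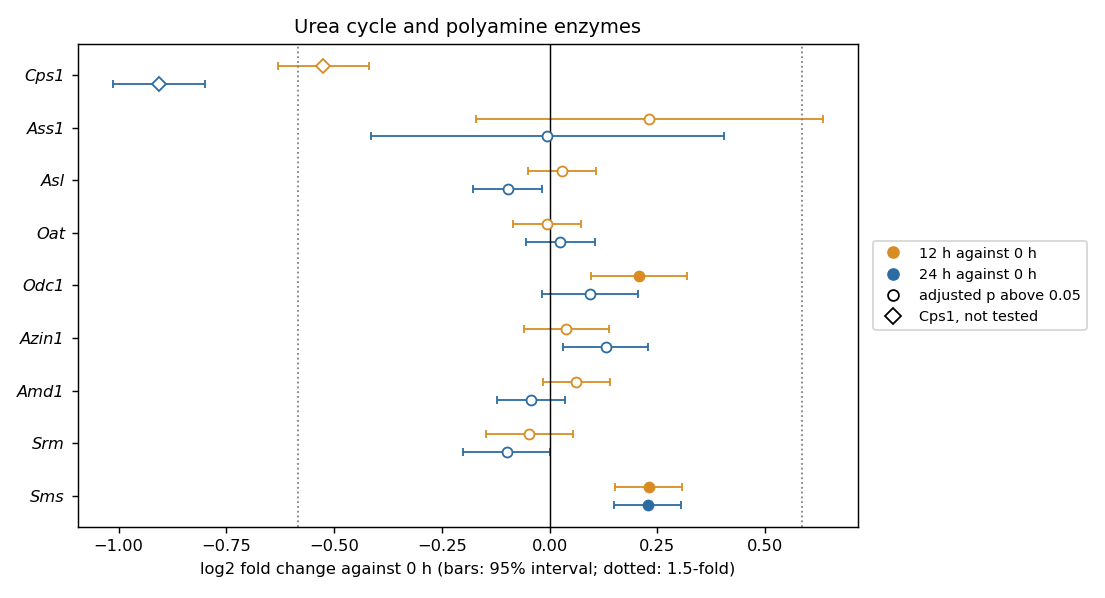
Log2 fold change against 0 h with its 95% interval for the 9 genes with enough counts, at 12 h and 24 h. Filled points passed an adjusted p of 0.05, and Cps1, which was not tested, has its own marker. The interval drawn for Cps1 is only a description, since Cps1 was chosen for its fall. Cps1 lies apart at -0.525 and -0.91, and Sms at both times and Odc1 at 12 h are the points that passed.

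Ass1 (GRCm38 chromosome 2, 31470207 to 31520672) joins citrulline and aspartate into argininosuccinate. It was barely expressed, with 64 to 114 counts per library. It was 2.95, 2.24 and 1.86 CPM in the 0 h libraries, 3.18, 2.605 and 2.35 at 12 h, and 2.36, 2.57 and 2.04 at 24 h, and the groups overlapped. No difference passed, and the 95% interval of its log2 fold change was wide, -0.17 to 0.63 at 12 h and -0.41 to 0.40 at 24 h. Another gene, Gm5424, holds 26.9% of the 100-base stretches of the Ass1 transcripts, so reads of the pair may be mixed or lost.

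Asl (GRCm38 chromosome 5, 130011258 to 130029247) splits argininosuccinate into arginine and fumarate. It was 99.4, 99.1 and 94.6 CPM in the 0 h libraries, 102, 98.8 and 98.04 at 12 h, and 90.8, 91.7 and 91.4 at 24 h. All 24 h libraries lay below all earlier ones. Against 0 h the 24 h difference was -0.098 ± 0.037 (SE) with an edgeR adjusted p of 0.08485, and against 12 h it was -0.13 ± 0.037 with 0.0625, so neither passed. The test over the time points together gave an edgeR adjusted p of 0.0391, but 0.0650 under total counts and 0.0692 without the filter. That call was also lost, with the adjusted p given in parentheses, without replicate 1 (0.0512) or 2 (0.0663) of 0 h, replicate 1 (0.0945) or 2 (0.0677) of 12 h, or replicate 1 (0.141), 2 (0.0995) or 3 (0.130) of 24 h. From 12 to 24 h Asl did pass under DESeq2 (adjusted p of 0.0477) and, by edgeR, without replicate 3 of 12 h (-0.14, adjusted p of 0.0372).

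Arginase, the last enzyme of the cycle, has a mitochondrial form, Arg2, and a cytosolic form, Arg1. Arg2 (GRCm38 chromosome 12, 79130777 to 79156301) had 6, 4 and 1 counts at 0 h, 5, 0 and 3 at 12 h, and 2, 2 and 5 at 24 h, and was removed by the filter on low counts. Other genes on the opposite strand cover 28.1% of its exonic bases. Arg1 had means of 44.5 ± 9.32, 48.3 ± 8.39 and 41.2 ± 5.665 CPM at the 3 time points, and no difference between time points passed.

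Oat (GRCm38 chromosome 7, 132557478 to 132576398) passes the amino group of ornithine to 2-oxoglutarate. It was 163, 164 and 162 CPM in the 0 h libraries, 166, 163 and 158 at 12 h, and 172, 159 and 165.5 at 24 h. The groups overlapped, and the 95% interval of the log2 fold change was -0.086 to 0.074 at 12 h and -0.055 to 0.10 at 24 h.

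Odc1 (GRCm38 chromosome 12, 17544794 to 17551505), ornithine decarboxylase, makes putrescine, and its protein is short-lived. It was 129, 136 and 142.5 CPM in the 0 h libraries, 156, 169 and 146 at 12 h, and 142.5, 139 and 153 at 24 h. All 12 h libraries lay above all 0 h libraries, and the 24 h libraries overlapped both groups. The rise at 12 h was 0.21 ± 0.053 on the log2 scale (SE), or 15.5%, with an edgeR adjusted p of 0.00789. It passed under each alternative tried, with values of 0.15 to 0.27. The 24 h level differed from that at 0 h by 0.093 ± 0.053 (SE, edgeR adjusted p of 0.254) and from that at 12 h by -0.115 ± 0.052 (SE, edgeR adjusted p of 0.231). Replicate 3 was the lowest library of 12 h, and without it the last difference passed (-0.17, edgeR adjusted p of 0.0372). The test over the time points together gave an edgeR adjusted p of 0.0204, lost, with the adjusted p given in parentheses, without replicate 1 of 0 h (0.0704) or replicate 1 (0.0532) or 2 (0.0853) of 12 h. Together 9 other genes hold 10.1% of the 100-base stretches of the Odc1 transcripts.

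Most like Odc1 in pattern over the 9 libraries were Lsm6 (r = 0.973), Ppia (0.969), Bap1 (0.951), Psmd12 (0.951) and Nolc1 (0.939). All had their highest mean at 12 h, as did Odc1, by whose pattern they were picked. Ppia, cyclophilin A, went from 1711 to 1938 and then 1794 CPM, and Psmd12, a proteasome subunit, from 110.4 to 121 and then 113 CPM.

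Azin1 (GRCm38 chromosome 15, 38487427 to 38519266), the antizyme inhibitor, resembles Odc1 without its enzyme activity and frees Odc1 protein from antizyme. It was 70.6, 74.4 and 78.9 CPM in the 0 h libraries, 73.2, 77.0 and 80.0 at 12 h, and 81.7, 82.4 and 81.2 at 24 h. The 24 h libraries lay above all earlier ones. At 12 h the log2 fold change was 0.038 ± 0.0465 (SE, edgeR adjusted p of 0.593). At 24 h it was 0.13 ± 0.046 (SE, edgeR adjusted p of 0.0636), which did not pass. It passed without replicate 3 of 0 h (0.18), without replicate 3 of 12 h (0.13) and under 3 other alternatives. The antisense gene Gm49077 covers 5.72% of its exonic bases.

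Amd1 (GRCm38 chromosome 10, 40287458 to 40302186), S-adenosylmethionine decarboxylase, supplies both later polyamine steps. It was 128.5, 129.6 and 135.5 CPM in the 0 h libraries, 135, 141.5 and 135 at 12 h, and 126, 128 and 129 at 24 h. All 24 h libraries lay below all 12 h libraries, a difference of -0.10 ± 0.037 (SE) with an edgeR adjusted p of 0.115, and no comparison passed. The single-exon gene Amd2, at 7.89 ± 0.418 CPM at 0 h, holds 64.2% of the 100-base stretches of Amd1, so its count is uncertain. With both genes added together, a step chosen after seeing the data, the log2 fold changes were 0.075 at 12 h, -0.038 at 24 h and -0.11 from 12 to 24 h, and none passed.

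Srm (GRCm38 chromosome 4, 148591503 to 148594993) is spermidine synthase. It was 179, 180.4 and 196 CPM in the 0 h libraries, 175, 190.4 and 172 at 12 h, and 179, 164 and 175 at 24 h. The 24 h libraries lay at or below the lowest 0 h library. The log2 fold change was -0.048 ± 0.048 at 12 h (SE) and -0.099 ± 0.048 at 24 h, with edgeR adjusted p of 0.507 and 0.172, and neither passed.

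Sms (GRCm38 chromosome X, 157443855 to 157492287) is spermine synthase, and it was higher at both later times. It was 82.6, 86.1 and 83.8 CPM in the 0 h libraries, 101, 99.0 and 96.4 at 12 h, and 98.1, 98.6 and 99.0 at 24 h. Every later library lay above every 0 h library, and the later groups overlapped each other. The rise was 0.23 ± 0.037 at 12 h (SE) and 0.23 ± 0.037 at 24 h, or 17.25% and 17.1%, with edgeR adjusted p of 0.000244 and 0.0003625. Both passed under each alternative tried, with values of 0.22 to 0.26 and 0.21 to 0.25. From 12 to 24 h the log2 difference was -0.0022, with a 95% interval of -0.080 to 0.075. The pseudogene Sms-ps holds 16.4% of the 100-base stretches of the Sms transcripts.

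**Figure D2:**
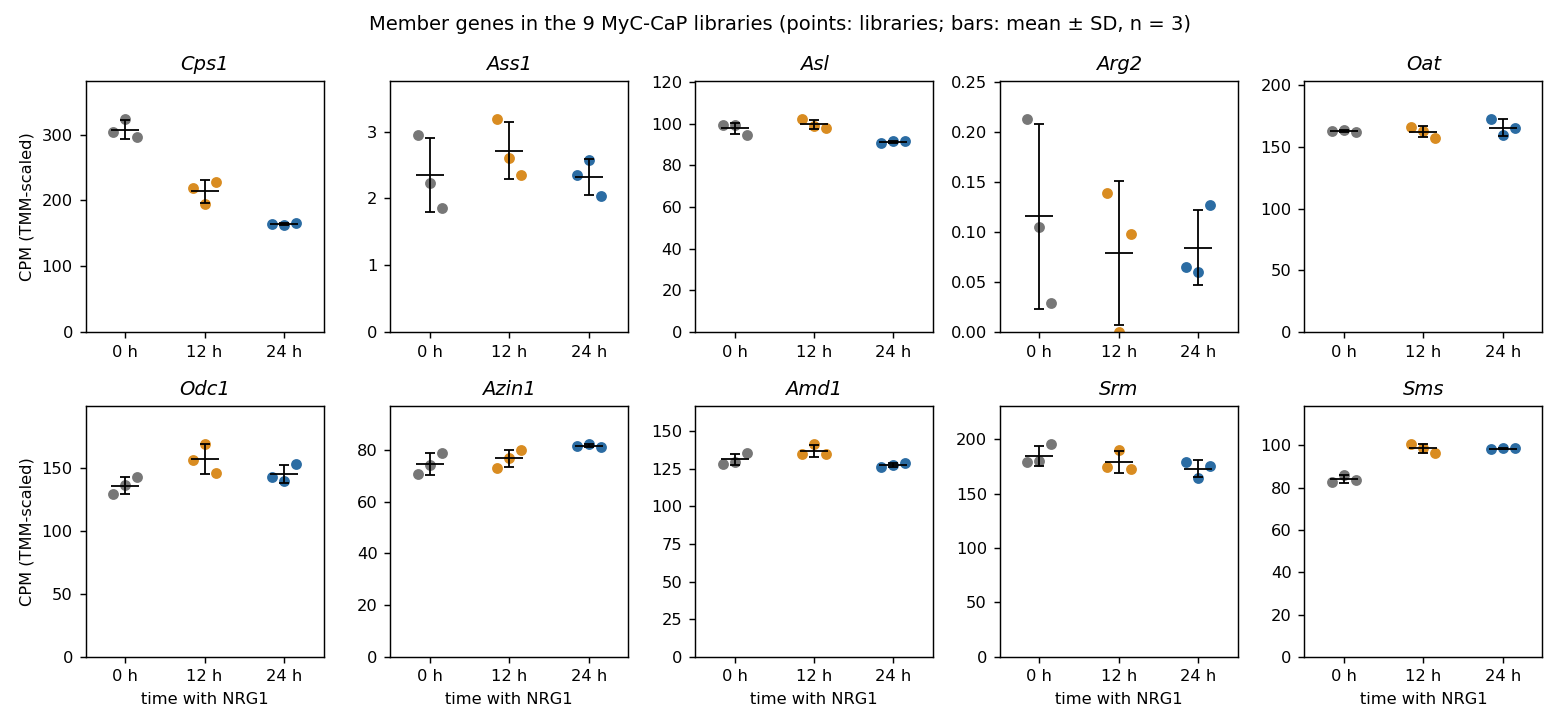
CPM of the 10 genes in each of the 9 libraries by time point, with the mean and SD of 3 libraries and each axis starting at 0. Cps1 steps down at each time, Sms is higher at 12 and 24 h than at 0 h, and Arg2 stays near 0.

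Levels were compared between genes per length, as CPM per kb of exon at 0 h (mean ± SD, n = 3). The length of a gene was that of the combined exons of all its annotated transcripts. A gene expressed mainly as a shorter transcript therefore comes out too low, and the order of genes depends in part on the annotation. Srm was the highest at 116 ± 5.73, followed by Oat at 69.1 ± 0.337 and Cps1 at 55.4 ± 2.52. Odc1 at 39.9 ± 2.01 and Amd1 at 37.0 ± 1.07 came next, and their libraries overlapped. Asl was at 20.2 ± 0.564, Sms at 14.0 ± 0.2945 and Azin1 at 11.9 ± 0.665. Ass1 was at 0.972 ± 0.229 and Arg2 at 0.08105 ± 0.0647. By 24 h Cps1 was at 29.55 ± 0.314, below Odc1 at 42.5 ± 2.03 and Amd1 at 36.0 ± 0.389.

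**Figure D3:**
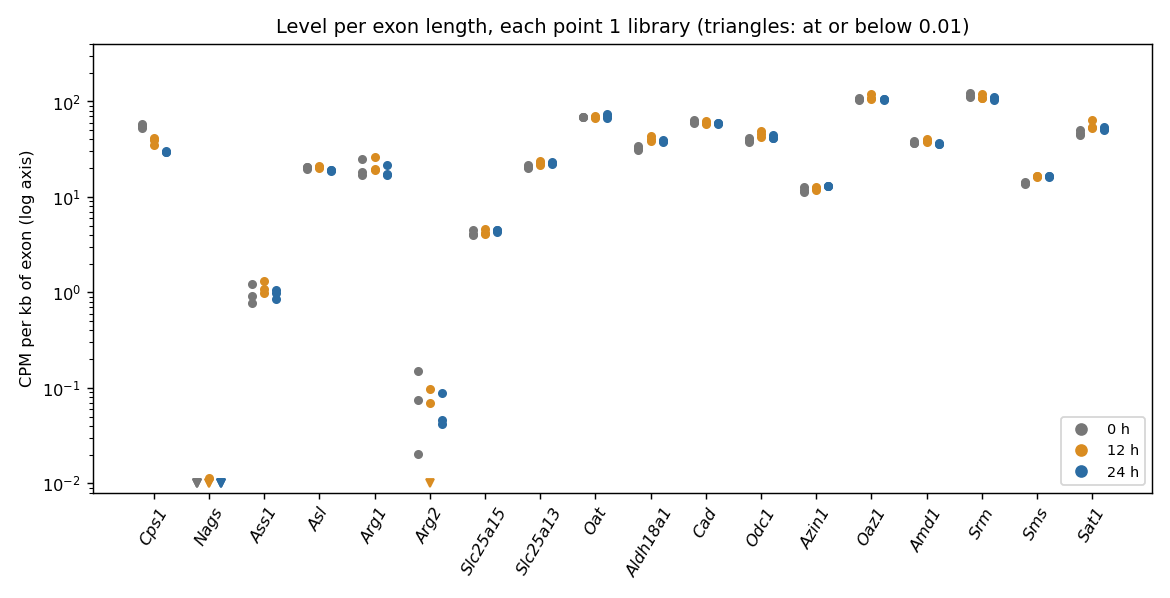
Level of the 10 genes and related genes in CPM per kb of exon on a log axis, with 1 point per library, colored by time point, and triangles for values at or below 0.01. Srm lies highest of the 10 genes, Cps1 moves from 55.4 to 29.55 on average, and Arg2 lies lowest of the 10.

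Ratios of counts within a library, which no scaling between libraries can move, were looked at after these values had been seen. Sms over Srm was 0.461, 0.477 and 0.428 at 0 h, 0.576, 0.520 and 0.560 at 12 h, and 0.547, 0.600 and 0.566 at 24 h, with every later library above every 0 h library. Odc1 over Oaz1, the antizyme that sends Odc1 protein to the proteasome, was 0.479, 0.512 and 0.519 at 0 h, 0.556, 0.557 and 0.539 at 12 h, and 0.526, 0.511 and 0.572 at 24 h. The 12 h libraries lay above those of 0 h, and the 24 h libraries overlapped both. Odc1 over Azin1 was 1.82, 1.83 and 1.81 at 0 h, 2.13, 2.19 and 1.82 at 12 h, and 1.74, 1.69 and 1.88 at 24 h, where replicate 3 of 12 h did not stand above the 0 h libraries.

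Other genes of the pathway came from 3 lists. In that for the urea cycle and arginine 10 of 19 genes could be tested. At 12 h 3 passed as higher and 1 as lower, at 24 h 1 as higher and 1 as lower, and from 12 to 24 h 0 by edgeR (0 at an unadjusted p under 0.05). The shares of all genes that passed in these comparisons were 25.5%, 17.4% and 5.03%. The median log2 fold changes were 0.031, 0.012 and -0.0050. Slc7a1, the main transporter of arginine and ornithine into cells, was 196, 234 and 209 CPM in the 0 h libraries, 244, 236.5 and 312 at 12 h, and 240, 268 and 255 at 24 h. Both later groups lay above the first. It rose by 0.31 ± 0.083 at 12 h (SE) with an edgeR adjusted p of 0.0116, and by 0.25 ± 0.083 at 24 h with 0.0432. Without replicate 3 of 12 h, its highest library, the 12 h value was 0.18. The 12 h call was lost under DESeq2 and without replicate 1 of 0 h (0.25). The 24 h call was lost under DESeq2 and without replicate 1 (0.20) or 3 (0.25) of 0 h or replicate 2 (0.22) or 3 (0.26) of 24 h.

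Ddah2, which breaks down methylated arginine, was 15.65, 15.4 and 13.65 CPM in the 0 h libraries, 12.2, 11.2 and 11.2 at 12 h, and 12.8, 12.7 and 10.65 at 24 h. It fell by 0.37 on the log2 scale at 12 h, with an edgeR adjusted p of 0.00608. The fall of 0.31 at 24 h (edgeR adjusted p of 0.0227) was lost without replicate 1 (-0.27) or 2 (-0.28) of 0 h or replicate 3 of 24 h (-0.22). Slc25a13, a mitochondrial carrier that exports aspartate, rose by 0.14 at 12 h (edgeR adjusted p of 0.0344). This call was lost without replicate 1 (0.11) or 3 (0.14) of 0 h, replicate 1 (0.14) or 2 (0.097) of 12 h, or replicate 1 of 24 h (0.13), and also under total counts (0.13) and with only the compared time points (0.13). Nos3, a nitric oxide synthase, passed at 12 h (1.19 ± 0.38, SE, edgeR adjusted p of 0.0295) on 5 to 28 counts per library. That call was lost under DESeq2 and without replicate 1 (1.009) or 3 (1.26) of 0 h or replicate 1 (1.12) or 3 (1.12) of 12 h. Nags, Slc25a2, Slc7a2, Nos1, Nos2, Ddah1 and Gatm were too low to test, with at most 17 counts in any library, and Otc and Agmat were not analysed here.

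In the list for ornithine, proline and glutamate 13 of 14 symbols could be tested. The other, Pycr3, is a newer symbol of Pycrl, which was in the list and was tested, so no gene of this list went untested. At 12 h 4 rose and 3 fell, at 24 h 4 rose and 2 fell, and from 12 to 24 h 0 passed by edgeR (3 at an unadjusted p under 0.05), beside 25.5%, 17.4% and 5.03% of all genes. The median log2 fold changes were 0.014, -0.038 and -0.038. Aldh18a1, which makes the glutamate semialdehyde that Oat also makes, was 126, 140 and 132 CPM in the 0 h libraries, 157, 164 and 175 at 12 h, and 154.5, 157.5 and 161 at 24 h. Both later groups lay above the first, by 0.32 ± 0.046 and 0.25 ± 0.046 on the log2 scale (SE), with edgeR adjusted p of 9.72e-05 and 0.00112. Pycr1, which completes proline, rose by 0.31 and 0.39, with edgeR adjusted p of 0.00323 and 0.000834. Asns, asparagine synthetase, was 188, 219.8 and 199 CPM in the 0 h libraries, 270.4, 277 and 314 at 12 h, and 275, 286 and 282 at 24 h. Its rises of 0.50 ± 0.057 and 0.47 ± 0.057 (SE) had edgeR adjusted p of 9.94e-06 and 1.87e-05.

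Glud1, glutamate dehydrogenase, and Glul, glutamine synthetase, release and fix ammonia, and both were lower at the later times. Glud1 was 442, 449 and 447 CPM in the 0 h libraries, 385, 376 and 360.1 at 12 h, and 401, 383 and 400.1 at 24 h. Its log2 fold changes were -0.26 ± 0.036 and -0.18 ± 0.036 (SE), with edgeR adjusted p of 6.22e-05 and 0.00224. Those of Glul were -0.21 ± 0.045 and -0.25 ± 0.045, with edgeR adjusted p of 0.00292 and 0.00112. Aldh4a1, of proline breakdown, fell by 0.25 at 12 h (edgeR adjusted p of 0.0448). Leaving out 1 library ended this call in 8 of 9 cases, all but that of replicate 2 of 12 h, with values of -0.30 to -0.20. It was also lost under DESeq2, without the filter, with the replicate block and with only the compared time points.

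In the list of genes that regulate, break down or use polyamines 17 of 19 could be tested, and Oaz3 and Smox had at most 3 counts in any library. At 12 h 3 rose and 2 fell, at 24 h 1 fell, and from 12 to 24 h 1 fell, beside 25.5%, 17.4% and 5.03% of all genes. The median log2 fold changes were 0.039, 0.039 and -0.022. Eif5a, the translation factor that carries hypusine, a residue made from spermidine, was 466, 465 and 499.9 CPM in the 0 h libraries, 571, 568 and 567.5 at 12 h, and 516, 494.5 and 514 at 24 h. Its 12 h libraries lay above all others. It rose by 0.25 ± 0.037 at 12 h (SE, edgeR adjusted p of 8.72e-05) and fell from 12 to 24 h by 0.16 (edgeR adjusted p of 0.0171). The fall was lost without replicate 1 of 12 h (-0.16) or replicate 1 (-0.17), 2 (-0.14) or 3 (-0.16) of 24 h.

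Sat1 and Paox acetylate polyamines and oxidise the acetylated forms. Sat1 was 125, 139.7 and 131 CPM in the 0 h libraries, 151, 145 and 176 at 12 h, and 139, 150.2 and 144 at 24 h, and rose by 0.25 ± 0.061 at 12 h (SE, edgeR adjusted p of 0.00556). Paox rose by 0.32 ± 0.084 at 12 h (SE, edgeR adjusted p of 0.0102), a call lost without replicate 3 of 0 h (0.27). Atp13a2, a lysosomal polyamine exporter, had log2 fold changes of -0.28 ± 0.059 at 12 h (SE) and -0.26 ± 0.058 at 24 h, with edgeR adjusted p of 0.00212 and 0.00535. Mat2a, which makes S-adenosylmethionine, fell by 0.22 at 12 h (edgeR adjusted p of 0.00756), a call lost without replicate 3 of 0 h (-0.18). Oaz1 had means of 269.8 ± 4.67, 285 ± 16.65 and 270.1 ± 3.115 CPM at the 3 time points, and no difference passed.

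**Figure D4:**
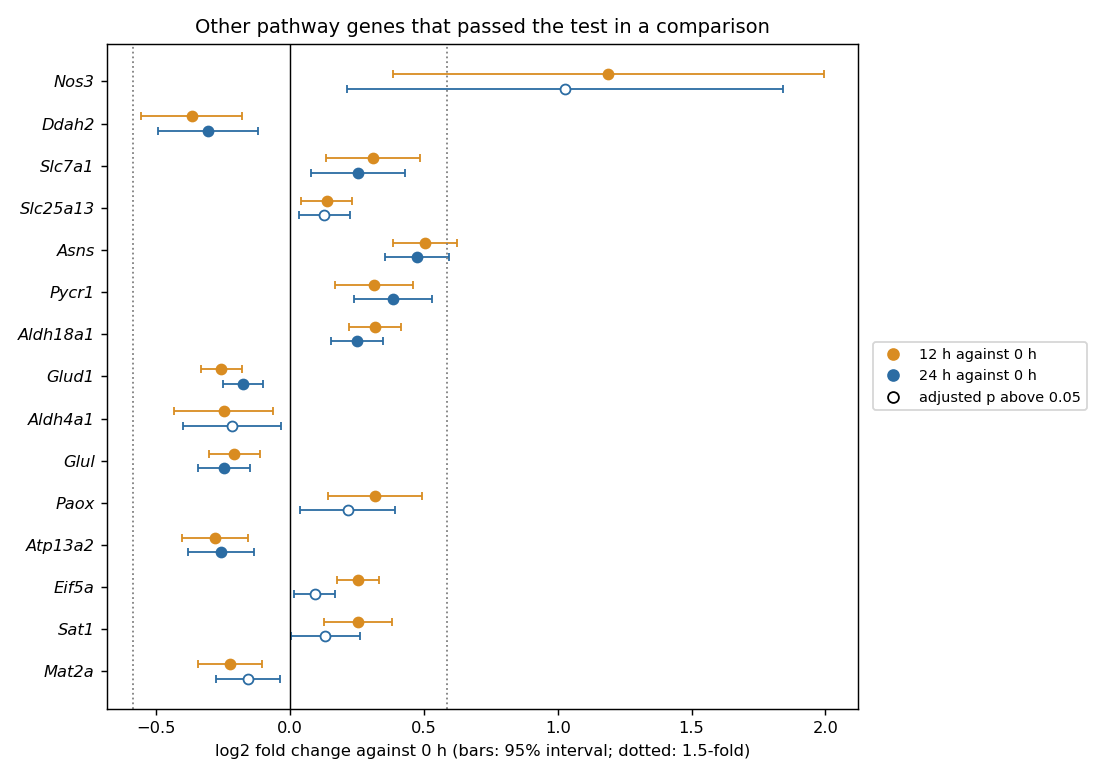
Log2 fold change against 0 h with its 95% interval for 15 further pathway genes, at 12 h and 24 h, with filled points for those that passed an adjusted p of 0.05. Asns, Pycr1 and Aldh18a1 lie above 0 at both times, Glud1, Glul, Ddah2 and Atp13a2 below, and Nos3 has the widest interval.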

How the data were processed

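mRNA of 9 libraries was sequenced as paired-end reads. Per the labels and the study's methods, reads were trimmed with Cutadapt, aligned to GRCm38.p6 with STAR and counted with featureCounts; strand and multi-mapping settings were not given in the sources used here. The deposited table holds a raw, unscaled count for each gene, so reads of near-identical or antisense genes may be mixed or lost.

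Here, genes were filtered with filterByExpr (11373 of 15552 kept), scaled by TMM and fitted over all 9 libraries by edgeR 4.0.16 (R 4.3.3), with time as a factor and the quasi-likelihood test. Adjusted p-values are Benjamini-Hochberg over all genes tested, at 0.05. Log2 CPM for correlations used a prior count of 2. Exon lengths, overlaps and shared 100-base stretches came from a GENCODE annotation of GRCm38 (15541 of 15552 genes matched). The script was tested on simulated counts with known changes at 12 h, in genes with a mean of at least 10 CPM. It recovered 5 of 50 genes changed 1.1-fold and 39 of 50 changed 1.2-fold. At 1.5-fold and at 2-fold it recovered 50 of 50, and 5 of 11095 unchanged genes passed. In the simulation, changes of 1.1-fold were therefore mostly missed. Nearly all of its 11295 genes were unchanged, whereas 25.5% of all genes passed at 12 h in these data. The adjustment is stricter where fewer genes change, so recovery in these data may differ and was not measured. Alternatives were DESeq2 1.42.0, total counts, no filter, a replicate block, only the compared time points and leaving out each library.

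Every member was named. From each pathway list, up to 6 genes with the largest change among those that passed were named, plus untested ones; further genes (Arg1, Cad, Oaz1, Amd2) were named for context with their values known. The members and lists were chosen with earlier results of these data known. Replicate libraries differed by more than sampling noise (chi-square per degree of freedom of 3.81 to 10.5). Wells were plated in triplicate and nothing more says how replicates were made, so p-values measure the spread between these libraries.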

Additional observations from a re-analysis of the deposited data

How the results depend on the processing

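The number of the 8 tested genes that passed at 12 h was 2 under each alternative run. At 24 h against 0 h it was 2 in place of 1 without the filter, with the replicate block and with only the compared time points, Azin1 being added, and 1 to 2 when 1 library was left out. From 12 to 24 h it was 1 in place of 0 under DESeq2, and 0 to 2 when 1 library was left out. Over the time points together it was 1 to 4 in place of 3 when 1 library was left out, and it was 1 without replicate 1 of 0 h, replicate 1 of 12 h or replicate 2 of 12 h. It was 2 under total counts and without the filter, Asl being lost.

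Some differences that did not pass changed sign. Ass1 at 24 h was 0.0059 with the replicate block, and Sms and Slc25a13 from 12 to 24 h were 0.012 and 0.0054 under total counts. When 1 library was left out, Ass1 at 24 h ran from -0.14 to 0.17, Oat from -0.024 to 0.025 at 12 h and from -0.0026 to 0.057 at 24 h, and Srm at 12 h from -0.095 to 0.0017. From 12 to 24 h, Sms ran from -0.024 to 0.012, Slc25a13 from -0.050 to 0.034, Slc7a1 from -0.12 to 0.078, Asns from -0.071 to 0.0335, Aldh4a1 from -0.011 to 0.087 and Atp13a2 from -0.011 to 0.069.

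Deviations from the group means were correlated between libraries of different times. Pairs with the same replicate number were at -0.074 to 0.13, and other pairs at -0.13 to 0.12. Of the 9 pairs with the same number 1 was over 0.1, and 4 of 9 libraries were closest to their own number. So few pairs cannot decide whether libraries with the same number were made together. The replicate block moved the genes that passed from 2896 to 2956, 1982 to 2039 and 572 to 609 in the 3 comparisons. When 1 library was left out, the genes that passed in the list for the urea cycle and arginine were 1 to 4 in place of 4 at 12 h and 0 to 3 in place of 2 at 24 h, and under DESeq2 they were 2 and 1. From 12 to 24 h 1 gene of that list passed in place of 0 without the filter and with the replicate block. Those of the polyamine list were 1 to 3 in place of 1 at 24 h (3 also without the filter and with only the compared time points, Sat1 and Mat2a being added) and 0 to 1 in place of 1 from 12 to 24 h.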
